A study of Mus musculus with 10 samples.

Results

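The granule genes of cytotoxic lymphocytes are described here in tumours grown from Hepa1-6, a hepatoma line of the mouse. The 10 genes were taken by symbol from a deposited expression table of 55020 lines. They are the granzymes Gzma, Gzmb, Gzmk, Gzmc, Gzmd, Gzme and Gzmf, the pore-forming protein gene Prf1, the granule membrane gene Nkg7 and Cst7, which encodes cystatin F. Each symbol had 1 line, and all 10 lines passed the filter of a mean of at least 1 FPKM over the tumours, which 14496 lines passed. FPKM is a fragment count scaled to transcript length and library size, so levels of different genes can be compared. The question was whether these transcripts differed between tumours treated with GSK343 and tumours treated with vehicle. GSK343 blocks EZH2, a histone-methylating enzyme of Polycomb repression.

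The tumours grew for 4 weeks under the skin of C57/BL6 mice, and poly-A RNA of whole tumours was sequenced. The GSK343 group holds 5 tumours, replicates 1 to 5, and the vehicle group 5 tumours, replicates 1, 2, 3, 5 and 6, described as biological replicates. All 10 tumours came from the same implanted line in hosts with their own lymphocytes. The titles of the vehicle tumours name no treatment, and that group was assigned by elimination between the 2 conditions of the design. Anti-asialo-GM1, used to deplete natural killer (NK) cells, and its control antibody also appear in the labels. No label says which tumour received which antibody, so its part in any value below cannot be told apart from the treatment. Values summed to between 574547 and 623397 FPKM per tumour, and 13985 to 14714 lines per tumour reached 1 FPKM. Read depth is unknown for FPKM values. Among the 20 pairs of tumours of the same group, r of log2(FPKM + 1) was 0.950 to 0.978, and no tumour stood as a copy of another. The liver tumour marker Alb, the gene of albumin, averaged 2810 ± 278 FPKM in GSK343 tumours and 3129 ± 318 FPKM in vehicle tumours (SD, n = 5 each). The T cell receptor constant gene Trac averaged 44.0 ± 18.1 FPKM in GSK343 tumours and 24.4 ± 10.6 FPKM in vehicle tumours, so both hepatoma and host lymphocyte RNA were present.

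Cytotoxic T cells and NK cells store granzymes, which are serine proteases, together with perforin in secretory granules. On contact with a target cell the granules fuse with the membrane, perforin opens the way into the target, and granzymes cleave proteins inside it. In mice, genes of the Gzmb family lie side by side with mast cell protease genes on chromosome 14, while Gzma and Gzmk neighbour each other on chromosome 13. Gzmc to Gzmf have no counterparts of their own in humans and are known from mouse lymphocytes after long or strong activation. In bulk tumour RNA, more cells of a type and more RNA per cell cannot be told apart.

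The start regions of the Gzmb family are shown first, because the 4 genes Gzmc to Gzmf have closely alike start regions and differed in their values across tumours. The sequences are RefSeq's, on GRCm38.p6 (mm10), from 250 bases before to 50 bases after each gene's start, and all 10 genes had an entry. Capitals mark matches on either strand to 4 motifs: the cAMP response element TGACGTCA, AP-1 as TGANTCA, RUNX as TGTGGTT, which reads AACCACA on the other strand, and T-box as GGTGTGA. No marked match overlaps another. Gzmb carries an AP-1 and a RUNX match.
Gzmb, chr14:56262285-56262584, minus strand: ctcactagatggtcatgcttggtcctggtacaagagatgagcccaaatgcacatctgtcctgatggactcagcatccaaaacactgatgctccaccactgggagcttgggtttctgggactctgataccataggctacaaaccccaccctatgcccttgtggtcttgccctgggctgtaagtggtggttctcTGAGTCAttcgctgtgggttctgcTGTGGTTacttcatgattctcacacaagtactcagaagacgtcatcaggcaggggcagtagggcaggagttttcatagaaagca
Gzmc carries a RUNX match and a cAMP response element.
Gzmc, chr14:56234608-56234907, minus strand: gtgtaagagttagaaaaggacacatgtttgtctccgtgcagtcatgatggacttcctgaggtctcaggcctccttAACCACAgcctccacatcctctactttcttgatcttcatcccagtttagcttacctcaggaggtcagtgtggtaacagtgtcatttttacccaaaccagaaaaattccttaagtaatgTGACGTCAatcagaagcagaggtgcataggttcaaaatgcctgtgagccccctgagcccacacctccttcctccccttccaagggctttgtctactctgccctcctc
Gzmd and Gzme carry the RUNX match without a cAMP response element.
Gzmd, chr14:56132544-56132843, minus strand: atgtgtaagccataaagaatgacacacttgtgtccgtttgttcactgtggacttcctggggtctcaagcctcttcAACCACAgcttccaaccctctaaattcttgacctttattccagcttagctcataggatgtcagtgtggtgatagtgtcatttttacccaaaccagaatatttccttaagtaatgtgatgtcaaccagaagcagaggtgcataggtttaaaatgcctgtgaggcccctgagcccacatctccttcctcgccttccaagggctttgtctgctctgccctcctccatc
Gzme, chr14:56120576-56120875, minus strand: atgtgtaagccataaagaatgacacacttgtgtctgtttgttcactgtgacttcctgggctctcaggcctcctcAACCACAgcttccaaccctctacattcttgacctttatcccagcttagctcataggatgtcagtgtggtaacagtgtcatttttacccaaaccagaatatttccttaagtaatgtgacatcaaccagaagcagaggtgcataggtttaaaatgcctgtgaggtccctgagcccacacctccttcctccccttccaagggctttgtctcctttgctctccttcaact
Gzmf carries the same pair of matches as Gzmc.
Gzmf, chr14:56211358-56211657, minus strand: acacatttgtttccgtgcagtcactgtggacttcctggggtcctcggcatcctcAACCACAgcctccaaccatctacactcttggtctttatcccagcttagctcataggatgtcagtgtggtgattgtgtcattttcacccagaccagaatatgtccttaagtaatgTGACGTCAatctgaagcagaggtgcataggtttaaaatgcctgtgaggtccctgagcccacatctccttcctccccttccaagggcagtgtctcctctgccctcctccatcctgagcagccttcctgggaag

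A RUNX match stood in 6 of the 10 granule promoters, those of Gzma, Gzmb, Gzmc, Gzmd, Gzme and Gzmf, and in 5.29% of 32544 mouse promoters of the same length. In Gzmc, Gzmd, Gzme and Gzmf it begins 175, 175, 176 and 196 bases before the start. Those promoters are closely alike in sequence, so their matches are not independent and the 6 of 10 is no measure of enrichment. The cAMP response element stood in 2 of the 10, Gzmc and Gzmf, and in 1.80% of all promoters. It begins 57 bases before the start of Gzmc and 82 bases before the start of Gzmf. Both matches stand in the same stretch of the aligned promoters and are likewise not independent. In the aligned stretch, Gzmd differs by C4T and Gzme by G5A, with positions counted from 1 at the 5′ end of the stretch of Gzmc. AP-1 stood in Gzmb and Cst7 and in 7.79% of all promoters, and T-box in Gzmk and Nkg7 and in 3.95%. Prf1 held none of the 4 in this window. The promoters of Gzmd and Gzme were 94.0% identical over their aligned bases. Gzmc was 86.1% to 86.9% identical to Gzmd, Gzme and Gzmf, while Gzmb was 66.0% to 69.9% identical to the 4. A match is a run of letters and no measurement of binding.

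All 10 granule genes had a higher mean in GSK343 tumours than in vehicle tumours, by 1.34-fold (Gzme) to 2.58-fold (Gzmc). None passed limma's test at an adjusted p under 0.05, so no member is described as changed. The background is small: 12 of 14496 lines, 0.0828%, passed in either direction, 0.069% higher and 0.0138% lower in GSK343 tumours. The mean was over 1.5-fold higher in GSK343 tumours for 8 of the 10 genes, all but Gzmk and Gzme, against 8.75% of all tested lines. At an unadjusted p under 0.05, 3 of the 10 passed, namely Gzmc, Gzmd and Cst7, all higher in GSK343 tumours, against 10.7% of all tested lines in that direction and 17.6% in either. Gzmc was the member whose groups did not overlap, 1 of 10, against 1.42% of all tested lines with non-overlapping groups in that direction and 2.62% in either. The median log2 fold change was 0.80 over the 10 genes and −0.01 over all tested lines. A positive log2 fold change, which all 10 genes had, stood in 47.6% of all tested lines. Fold changes are on the log2(FPKM + 1) scale, which understates changes of low genes.

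**Figure D1:**
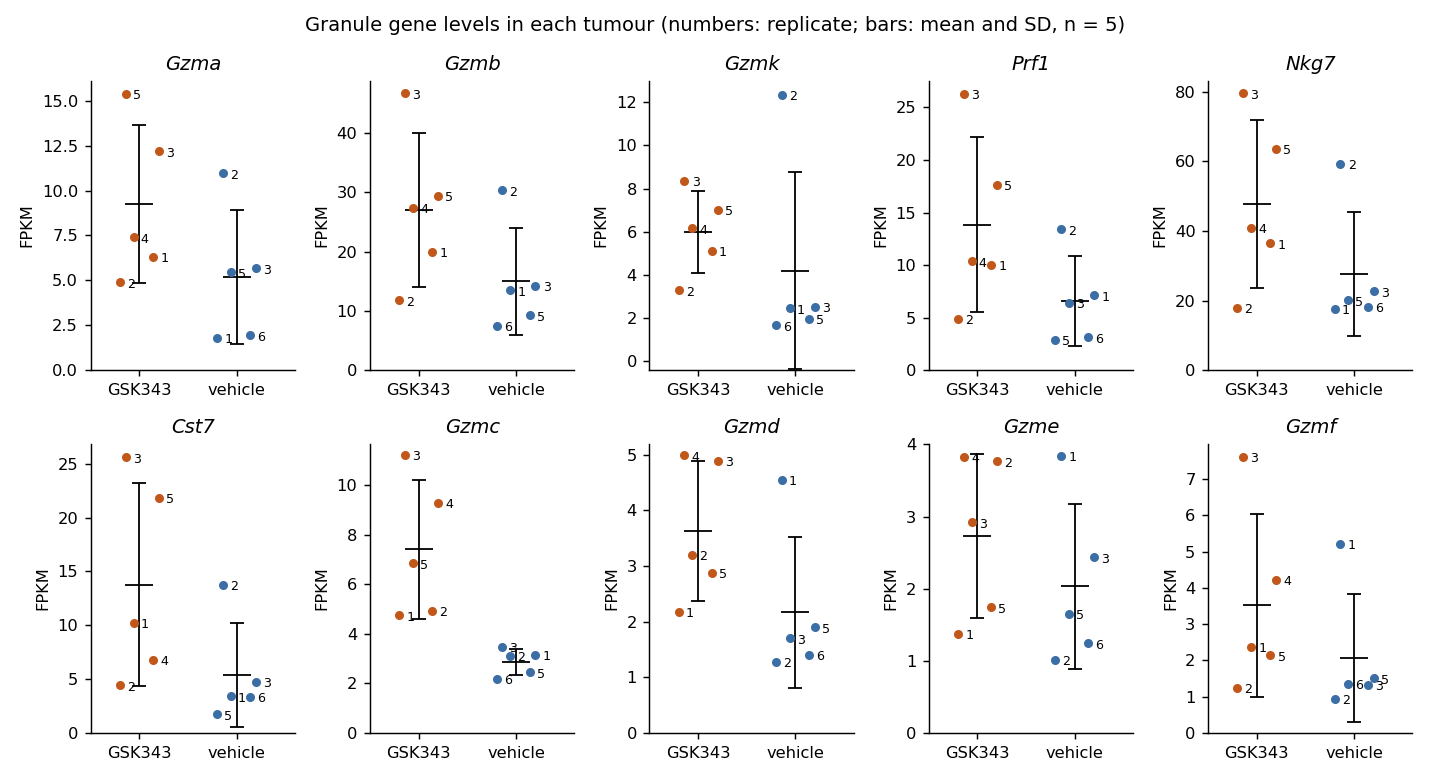
The FPKM of each granule gene in every tumour is shown with GSK343 tumours on the left and vehicle tumours on the right; points carry the replicate number, and bars give the mean and SD of 5 tumours. The groups overlap in every panel but that of Gzmc, where GSK343 tumours lie at 4.75 to 11.2 FPKM and vehicle tumours at 2.18 to 3.47 FPKM.

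Granzyme B, a protease that cleaves after aspartate and activates caspases, was the most abundant granzyme transcript. Gzmb lies on chromosome 14, 56258838 to 56262260, minus strand (mm10). It had 19.9, 11.8, 46.7, 27.4 and 29.4 FPKM in GSK343 replicates 1 to 5, against 13.5, 30.4, 14.2, 9.29 and 7.44 FPKM in vehicle replicates 1, 2, 3, 5 and 6. GSK343 replicate 3 was the highest of all, but vehicle replicate 2 stood above the 4 other GSK343 tumours. The mean was 27.1 ± 12.99 FPKM in GSK343 tumours and 15.0 ± 9.07 FPKM in vehicle tumours (SD, n = 5 each; log2 fold change 0.84, SE 0.395, limma adjusted p = 0.303). The 95% interval of that log2 fold change ran from −0.03 to 1.71.

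Granzyme A, a tryptase that cleaves after basic residues, was the next most abundant of the granzymes. Gzma lies on chromosome 13, 113093825 to 113100981. It had 6.30, 4.88, 12.2, 7.40 and 15.4 FPKM in GSK343 replicates 1 to 5, against 1.80, 10.95, 5.66, 5.45 and 1.94 FPKM in vehicle replicates 1, 2, 3, 5 and 6. GSK343 replicates 3 and 5 stood above every vehicle tumour, and vehicle replicates 1 and 6 stood below every GSK343 tumour. Its log2 fold change was 0.84 (SE 0.422, limma adjusted p = 0.331).

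Granzyme K, the other tryptase of chromosome 13, was the granzyme most marked by 1 vehicle tumour. Gzmk lies at 113171608 to 113225908, minus strand, and overlaps Esm1 on the other strand without sharing an exon base. It had 5.11, 3.26, 8.35, 6.15 and 7.01 FPKM in GSK343 replicates 1 to 5, against 2.44, 12.4, 2.50, 1.96 and 1.64 FPKM in vehicle replicates 1, 2, 3, 5 and 6. Vehicle replicate 2 was the highest of the 10 tumours, while the 4 other vehicle tumours were below every GSK343 tumour. The log2 fold change was 0.69 (SE 0.412, limma adjusted p = 0.405). With each tumour left out in turn it ran from 0.53, without vehicle replicate 6 (limma adjusted p = 0.606), to 1.12, without vehicle replicate 2 (limma adjusted p = 0.0509). Leaving out vehicle replicate 2 also raised the number of lines called over the whole table from 12 to 96, so that lower p is not particular to Gzmk.

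Perforin, which forms the pore through which granzymes enter, varied with granzyme B. Prf1 lies on chromosome 10, 61297833 to 61304680, plus strand. It had 10.03, 4.90, 26.3, 10.3 and 17.7 FPKM in GSK343 replicates 1 to 5, against 7.12, 13.4, 6.41, 2.90 and 3.14 FPKM in vehicle replicates 1, 2, 3, 5 and 6. GSK343 replicates 3 and 5 exceeded every vehicle tumour, and GSK343 replicate 2 lay among the vehicle tumours. The means were 13.9 ± 8.32 FPKM in GSK343 tumours and 6.60 ± 4.26 FPKM in vehicle tumours (SD, n = 5 each; log2 fold change 0.95, SE 0.448, limma adjusted p = 0.304). The FPKM ratio of Prf1 to Gzmb was 0.492 ± 0.0948 in GSK343 tumours and 0.431 ± 0.0779 in vehicle tumours, a difference within the spread of either group.

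Nkg7, a granule membrane protein that takes part in granule release, had the highest level of the 10 genes. It lies on chromosome 7, 43437073 to 43438249, and its mean exceeded that of 82.8% of all tested lines. It had 36.5, 18.0, 79.6, 41.0 and 63.6 FPKM in GSK343 replicates 1 to 5, against 17.7, 59.4, 22.7, 20.1 and 18.3 FPKM in vehicle replicates 1, 2, 3, 5 and 6. GSK343 replicates 3 and 5 were the highest, vehicle replicate 2 came next, and GSK343 replicate 2 was close to the low vehicle tumours. Its log2 fold change was 0.77 (SE 0.419, limma adjusted p = 0.367).

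Cystatin F, the product of Cst7, is an inhibitor of cysteine cathepsins in granules, among them the cathepsin that activates granzyme precursors. Cst7 lies on chromosome 2, 150570415 to 150578944. It had 10.2, 4.41, 25.6, 6.81 and 21.8 FPKM in GSK343 replicates 1 to 5, against 3.39, 13.8, 4.73, 1.71 and 3.34 FPKM in vehicle replicates 1, 2, 3, 5 and 6. It had the highest log2 fold change of the 10 genes, 1.21 (SE 0.524, 95% interval 0.05 to 2.37, limma adjusted p = 0.269), but also a wide spread, and the groups overlapped. Its exact two-sided permutation p over all assignments of 5 of the 10 tumours was 0.0873.

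Granzyme C separated the groups. Gzmc lies on chromosome 14, 56231441 to 56234656, minus strand, next to Gzmb. It had 4.75, 4.94, 11.2, 9.29 and 6.85 FPKM in GSK343 replicates 1 to 5, against 3.15, 3.11, 3.47, 2.46 and 2.18 FPKM in vehicle replicates 1, 2, 3, 5 and 6. All 5 GSK343 tumours lay above all 5 vehicle tumours, and the vehicle tumours, replicate 2 included, kept to a narrow range. The mean was 7.41 ± 2.81 FPKM in GSK343 tumours and 2.87 ± 0.535 FPKM in vehicle tumours (SD, n = 5 each). The log2 fold change was 1.07 (SE 0.211, 95% interval 0.60 to 1.53, limma adjusted p = 0.136). By p it ranked 44th of the 14496 lines, and its exact two-sided permutation p of 0.00794 is the smallest that 5 against 5 can give. With each tumour left out in turn, its log2 fold change stayed between 0.92 and 1.19, and limma's adjusted p between 0.056 and 0.325.

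Granzymes D, E and F, less studied members of the same family, were lower and did not repeat the separation of Gzmc. Gzmd (chromosome 14, 56129556 to 56132608) had 2.18, 3.20, 4.89, 4.99 and 2.88 FPKM in GSK343 replicates 1 to 5, against 4.55, 1.28, 1.70, 1.90 and 1.40 FPKM in vehicle replicates 1, 2, 3, 5 and 6. Vehicle replicate 1 stood among the highest GSK343 tumours, and the 4 other vehicle tumours lay below every GSK343 tumour. The log2 fold change of Gzmd was 0.59 (SE 0.261, limma adjusted p = 0.279). It was 0.81 without vehicle replicate 1 (limma adjusted p = 0.332) and 0.49 without GSK343 replicate 4 (limma adjusted p = 0.349), the highest and lowest with 1 tumour left out.

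Gzme (chromosome 14, 56117626 to 56120625) had 1.37, 3.77, 2.92, 3.83 and 1.74 FPKM in GSK343 replicates 1 to 5, against 3.84, 1.01, 2.44, 1.65 and 1.24 FPKM in vehicle replicates 1, 2, 3, 5 and 6. Here GSK343 replicates 1 and 5 were low, and vehicle replicate 1 was level with the highest GSK343 tumours. The log2 fold change of Gzme, 0.31, was the lowest of the 10 (SE 0.276, limma adjusted p = 0.575). Leaving out GSK343 replicates 2 and 4 in turn gave 0.21 and 0.20, and leaving out vehicle replicates 1 and 2 in turn gave 0.50 and 0.18.

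Gzmf (chromosome 14, 56205263 to 56211417) had 2.37, 1.24, 7.61, 4.22 and 2.14 FPKM in GSK343 replicates 1 to 5, against 5.22, 0.938, 1.33, 1.51 and 1.35 FPKM in vehicle replicates 1, 2, 3, 5 and 6. GSK343 replicate 3 and vehicle replicate 1 were the highest tumours of their groups. Its log2 fold change was 0.54 (SE 0.395, limma adjusted p = 0.5003), 0.83 without vehicle replicate 1 and 0.26 without GSK343 replicate 3 (limma adjusted p = 0.791). Gzmf shares 151 exon bases with the antisense gene Gm4022. The line of Gm4022 is listed at 0 in all tumours, and the strand setting of the counting is not given in the sources used here.

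The transcripts of Gzmd and Gzme are 94.8% identical, so their values are uncertain as separate genes. Of all stretches of 50 bases, 21.9% in Gzmd, 20.6% in Gzme, 7.36% in Gzmf and 4.14% in Gzmc recurred in another gene of the family. For Gzma, Gzmb, Gzmk, Prf1, Nkg7 and Cst7 the share was 0. At 100 bases, 0.231% of the stretches of Gzmd recurred, in Gzmg, and none of those of the 9 other genes did. How reads were shared between the copies is not given in the sources used here.

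Of the granzymes that are not among the 10, Gzmg averaged 1.64 ± 0.857 FPKM in GSK343 tumours and 1.13 ± 0.294 FPKM in vehicle tumours (SD, n = 5 each). Gzmm averaged 0.240 FPKM in GSK343 tumours and 0.248 FPKM in vehicle tumours and was below the filter, and Gzmn was listed at 0 in all tumours. Along chromosome 14 the cluster holds 15 protein-coding genes, of which 10 were tested, and 141.6 kb separate the start of Gzme from the start of Gzmb. Beyond Gzme lie the mast cell proteases. Mcpt4, a chymase of connective tissue mast cells, averaged 28.3 ± 17.4 FPKM in GSK343 tumours and 13.9 ± 8.64 FPKM in vehicle tumours, the highest mean of the cluster in GSK343 tumours. None of the 4 tested mast cell protease genes passed at an unadjusted limma p under 0.05, against 17.6% of all tested lines in either direction. Their median log2 fold change was 0.76. Mouse mast cells can also express granzymes, so this list is given beside Gzmb.

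**Figure D2:**
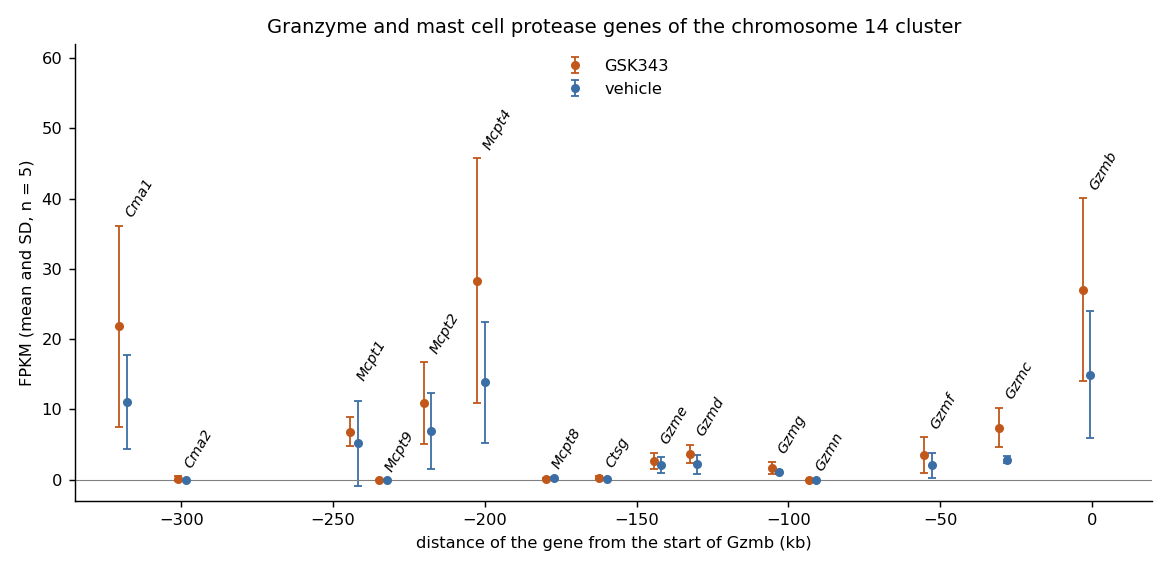
Each gene of the chromosome 14 cluster is placed by its distance from the start of Gzmb in kb on the x axis, with mean FPKM and SD over 5 tumours on the y axis, GSK343 drawn left of vehicle. Gzmb and the mast cell proteases Mcpt4 and Cma1 stand high, Gzmc at 7.41 FPKM in GSK343 tumours is the highest granzyme between them, and Gzmn and Mcpt9 are at 0.

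Summed by group of genes, both granzyme sets had higher means in GSK343 tumours and were highest in GSK343 replicate 3, but differed in which vehicle tumour was high. Gzma, Gzmb and Gzmk together had 31.4, 19.97, 67.2, 40.9 and 51.8 FPKM in GSK343 replicates 1 to 5, against 17.7, 53.7, 22.4, 16.7 and 11.03 FPKM in vehicle replicates 1, 2, 3, 5 and 6. Gzmc to Gzmf together had 10.7, 13.2, 26.7, 22.3 and 13.6 FPKM in GSK343 replicates 1 to 5, against 16.8, 6.34, 8.94, 7.51 and 6.17 FPKM in vehicle replicates 1, 2, 3, 5 and 6. Vehicle replicate 2 was second of all 10 tumours in the first sum and second from the bottom in the other, and vehicle replicate 1 was high only in the sum of Gzmc to Gzmf.

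The share of Gzmc to Gzmf in the summed granzyme FPKM was close in mean and wide in range. It was 29.9% ± 7.60 in GSK343 tumours, from 20.8% to 39.7%, and 30.9% ± 13.8 in vehicle tumours, from 10.6% to 48.6% (SD, n = 5 each). Both extremes of the 10 tumours were vehicle tumours, replicate 2 at the low end and replicate 1 at the high end. Gzmb alone made up 44.2% ± 5.36 of the sum in GSK343 tumours and 43.3% ± 4.999 in vehicle tumours. Neither difference exceeded the spread between tumours.

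**Figure D3:**
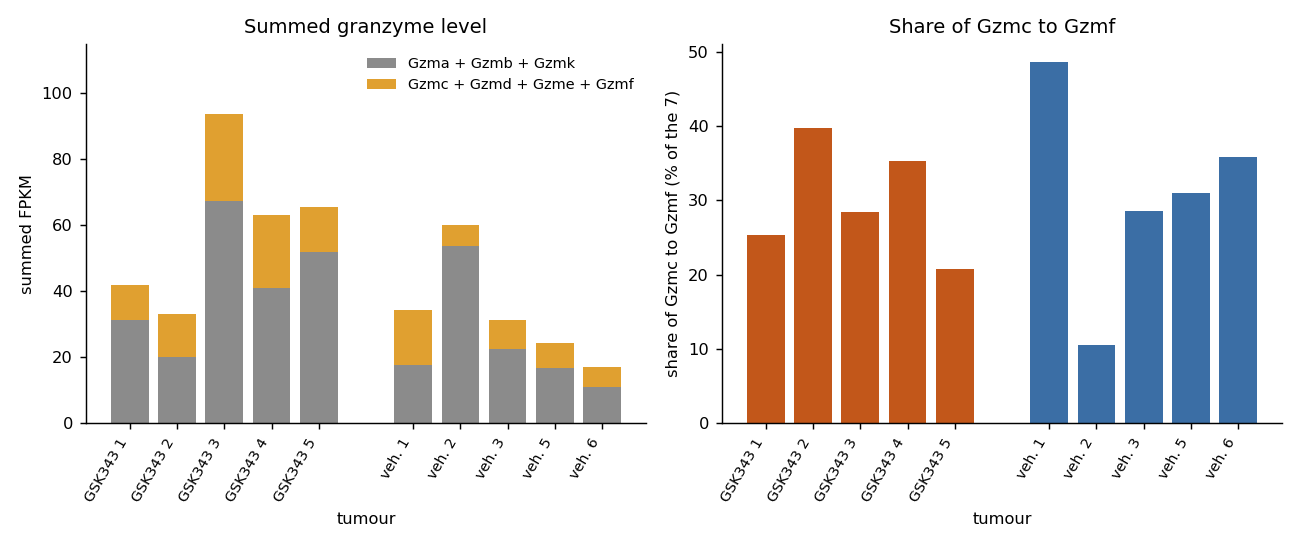
The left panel stacks the summed FPKM of Gzma, Gzmb and Gzmk under that of Gzmc to Gzmf in each tumour; the right panel gives the share of Gzmc to Gzmf in the sum of the 7 granzymes in percent, GSK343 tumours left of vehicle tumours. The sums are highest in GSK343 replicate 3, and the share runs from 10.6% in vehicle replicate 2 to 48.6% in vehicle replicate 1.

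For correlation across the 10 tumours the genes were split by name into Gzmc to Gzmf and a set of 6 others. The median r was highest within the 6. In all, 45 pairs were compared by Pearson's r of log2(FPKM + 1), with permutation p-values adjusted over the 45. Among Gzma, Gzmb, Gzmk, Prf1, Nkg7 and Cst7, r was 0.764 to 0.974 in the 15 pairs, with a median of 0.912, and all 15 passed at an adjusted p under 0.05. With the group means removed, those 15 ran from 0.668 to 0.963. Among Gzmc to Gzmf, r was 0.479 to 0.866 in 6 pairs, of which 3 passed. Between the sets, r was −0.198 to 0.797 in 24 pairs, with a median of 0.285, and 2 passed, Gzmb with Gzmc and Prf1 with Gzmc. The tumours share their libraries across genes, and each group alone has 5 tumours, too few for an r of its own.

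Granzyme B and perforin were the closest pair (r = 0.974, permutation p = 1e-05, the smallest the resamples can give, adjusted p = 0.00045; Spearman's rho = 0.964, n = 10). Without the 2 tumours farthest from the median of Gzmb, r was 0.951. Gzmd and Gzmf had r = 0.866 (permutation p = 0.00133, adjusted p = 0.00499; rho = 0.758), and 0.786 without 2 tumours. Gzmd and Gzme had r = 0.842 (permutation p = 0.00508, adjusted p = 0.0144; rho = 0.855), and 0.818 without 2 tumours. The shared sequence of these 2 genes bears on that value, and its part was not tested.

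Gzmc stood between the sets, no closer to Gzmd, Gzme and Gzmf than to the 6. Its r was 0.607 (Gzmk) to 0.797 (Gzmb) with the 6, and 0.746, 0.479 and 0.659 with Gzmd, Gzme and Gzmf. With Gzmb its r was 0.797 (permutation p = 0.00639, adjusted p = 0.0169; rho = 0.661), and 0.589 without GSK343 replicate 3 and vehicle replicate 6. With Gzmd its r was 0.746 (permutation p = 0.0158, adjusted p = 0.0355), with rho = 0.782 (permutation adjusted p = 0.0277). That r was 0.451 without GSK343 replicates 3 and 4, the tumours farthest from the median of Gzmc. Leaving out extreme tumours narrows the range, so what the relation rests on was not tested.

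**Figure D4:**
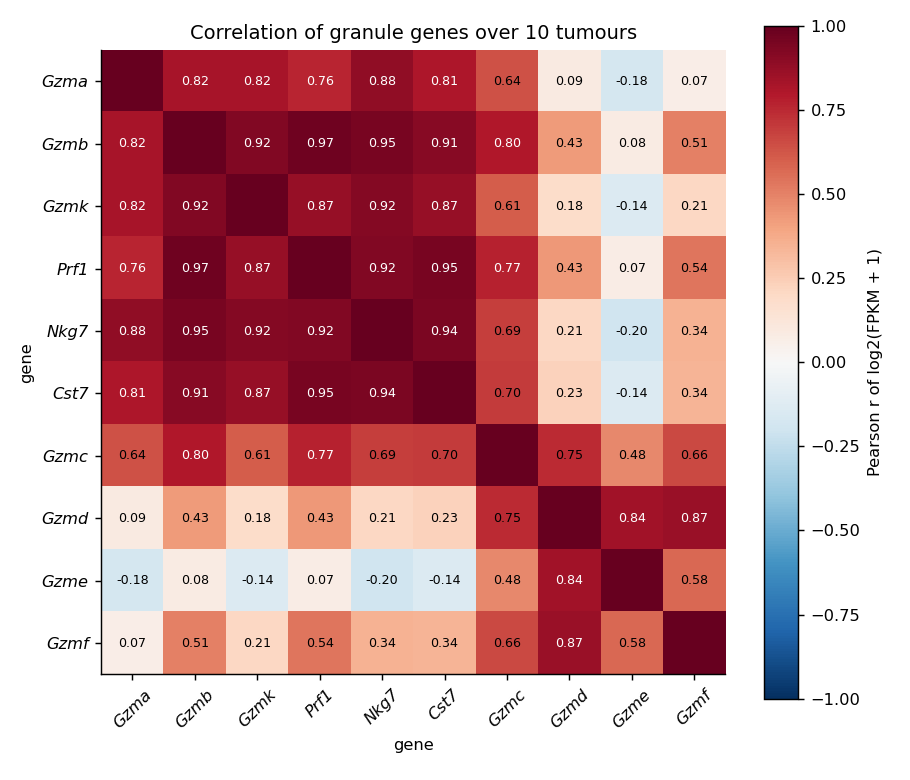
Each cell gives Pearson's r of log2(FPKM + 1) between a pair of granule genes over the 10 tumours, from blue (negative) to red (positive). The 6 genes at the upper left form a dark block from 0.764 upwards, and Gzme has r near 0 or below it with all 6 of them, down to −0.198 with Nkg7.

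The lines most like each gene over the 10 tumours, among 11528 named lines, differed between the sets. Gzmb was followed by Prf1 (r = 0.974), H2-T23 (0.968), a non-classical MHC class I gene, and Ccl5 (0.961), a chemokine of activated lymphocytes. Prf1 was followed by Gzmb, Pdcd1 (0.973), the gene of the PD-1 receptor, and Jdp2 (0.967). Nkg7 had Ccl5, Lck, a T cell receptor kinase, and Crlf2, each at 0.974. Cst7 had Ms4a4b and Prkcq, a T cell receptor signalling kinase, both at 0.988. Gzmk had Npc2 (0.981), Lat (0.973) and H2-T23 (0.967), and Gzma had Mmp28 (0.959), Tmem132a (0.954) and Fam45a (0.954).

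For Gzmc the 3 most alike lines were the interferon-stimulated genes Ifit3b (0.956), Ifit3 (0.945) and Isg15 (0.933). Gzmd had Gpx1 (0.886), the beta-globin gene Hbb-bt (0.875) and Lppos (0.871). Gzme had Plec (0.952), Uhrf1bp1l (0.918) and Iglon5 (0.874), and Gzmf had Rbl2 (0.945), Lynx1 (0.885) and Alas2 (0.874). Alas2 is the erythroid enzyme of haem synthesis. These are the highest of 11528 values each and are given as a description without a test.

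Markers of several leukocyte types varied with the set of 6. All 12 T cell markers had a higher mean log2 level in GSK343 tumours, against 47.6% of all tested lines, with a median log2 fold change of 0.65. Of the 12, 4 were higher at an unadjusted limma p under 0.05, against 10.7% of all tested lines, and none at an adjusted one. Their summed level was 127 to 328 FPKM in GSK343 tumours, against 73.9 to 234 FPKM in vehicle tumours. The 6 tested of 10 NK cell markers had a median of 0.73, with 5 above 0 and Klra4 at −0.18. Of the 6, 4 were higher at an unadjusted limma p under 0.05, against the same 10.7%, and none passed after adjustment. The summed level of all 10 was 23.6 to 63.2 FPKM in GSK343 tumours, against 13.1 to 38.5 FPKM in vehicle tumours. Ncr1, the defining NK receptor, was below the filter, at 0.726 ± 0.504 FPKM in GSK343 tumours and 0.300 ± 0.150 FPKM in vehicle tumours (SD, n = 5 each). Of the 3 tested gamma delta T cell markers 2 were above 0, with a median of 0.11 and the receptor gene Trdc at −0.04. Of 10 pan-leukocyte genes, 9 were higher in GSK343 tumours at an unadjusted limma p under 0.05, against 10.7% of all tested lines, and none passed after adjustment. The summed level of the 10 was 540.4 to 947 FPKM in GSK343 tumours, against 255 to 784 FPKM in vehicle tumours. Vehicle replicate 2 had the highest score of its group on the T cell, NK cell and pan-leukocyte lists. A score is the mean log2(FPKM + 1) of a list's tested members.

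Set beside these scores, Cst7 had r = 0.993 with the T cell score (permutation p = 1e-05, adjusted p = 0.00025; rho = 0.988, n = 10), and 0.989 without GSK343 replicates 3 and 5. Prf1 had r = 0.960 with it (permutation p = 2e-05, adjusted p = 0.000333; rho = 0.939), and 0.909 without those 2 tumours. Gzmb had r = 0.933 (permutation p = 8e-05, adjusted p = 0.001; rho = 0.927), and 0.887 without them. With the group means removed, r was 0.990 for Cst7, 0.942 for Prf1 and 0.903 for Gzmb. The adjustment is over 50 relations, 10 genes by 5 scores.

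The tie was not particular to the T cell score. For the same 6 genes r was 0.799 to 0.9746 with the NK cell score and 0.760 to 0.870 with the macrophage score, and all 6 passed at a permutation adjusted p under 0.05 with each. With the mast cell score it was 0.653 to 0.839, and 5 of the 6 passed, all but Gzmk. Gzma had r = 0.870 with the macrophage score (permutation p = 0.00119, adjusted p = 0.00595; rho = 0.842), 0.671 without vehicle replicates 1 and 6, against 0.823 with the T cell score. Nkg7 had r = 0.839 with the mast cell score (permutation p = 0.00417, adjusted p = 0.013; rho = 0.794), and 0.811 without GSK343 replicate 2 and vehicle replicate 5. The NK cell score rests on the 6 tested markers of its list and leaves out Ncr1. The part of T cells in that score was not tested, so it is not a separate measure of NK cells.

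With the proliferation score all 10 genes had r below 0, and Gzmb, Gzmc, Gzmd, Gzmf and Prf1 passed. Gzmc had r = −0.801 (permutation p = 0.00569, adjusted p = 0.0158; rho = −0.588, adjusted p = 0.129), and −0.696 without GSK343 replicate 4 and vehicle replicate 5. No rho with the proliferation score passed after adjustment.

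The members of the other set had lower r with the T cell score. Gzmc had r = 0.731 with the T cell score (permutation p = 0.0178, adjusted p = 0.0329), with rho = 0.733 (permutation adjusted p = 0.0424). That r was 0.454 without GSK343 replicates 3 and 5, the tumours farthest from the median score. What the relation rests on was not tested, since leaving out extreme tumours narrows the range. Gzmd had r = 0.275 (permutation p = 0.436, adjusted p = 0.507; rho = 0.285). Gzmf had r = 0.355 (permutation p = 0.314, adjusted p = 0.402; rho = 0.224), and Gzme r = −0.07 (permutation p = 0.841, adjusted p = 0.895; rho = −0.03). Without the 2 tumours, r was −0.08 for Gzmd, −0.10 for Gzmf and −0.20 for Gzme. Gzmd, Gzme and Gzmf have low levels and share stretches of sequence within the family. The part of either in these lower values was not tested.

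When the limma fit took the pan-leukocyte score as covariate, the 6 genes outside Gzmc to Gzmf had log2 fold changes below 0, from −0.34 for Gzmk to −0.11 for Gzmb. Those of Gzmc, Gzmd, Gzme and Gzmf were 0.87, 0.94, 0.75 and 0.79. With the T cell score as the covariate, the 6 lay between −0.13 and 0.11, and Gzmc, Gzmd, Gzme and Gzmf had 0.81, 0.65, 0.53 and 0.38. The NK cell score gave −0.11 to 0.09 for the 6, and 0.82, 0.64, 0.52 and 0.39 for Gzmc, Gzmd, Gzme and Gzmf. No gene passed in any of the 3 fits. For Gzmc, the limma adjusted p was 0.895, 0.682 and 0.803 with the pan-leukocyte, T cell and NK cell covariates. The scores were themselves higher in GSK343 tumours, so the parts of treatment and leukocyte content in the group difference cannot be told apart.

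**Figure D5:**
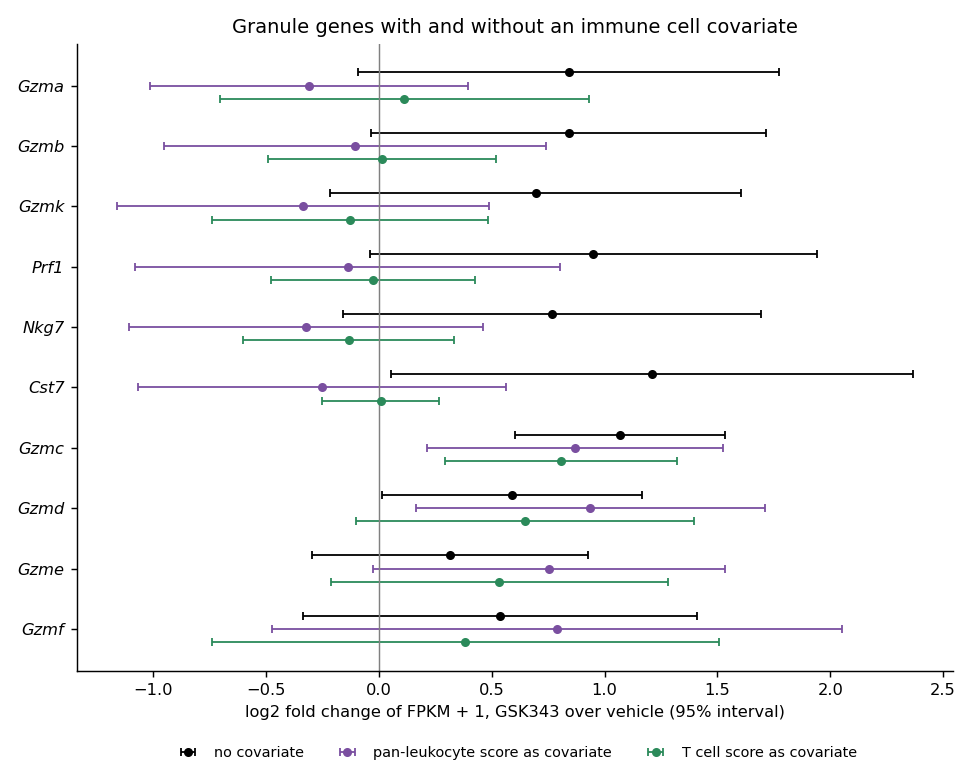
The log2 fold change of each gene, GSK343 over vehicle, is given with its 95% interval, without a covariate (black), with the pan-leukocyte score (purple) and with the T cell score (green). The 6 upper genes move to values between −0.34 and 0.11 once either score enters, while Gzmc stays at 0.87 and 0.81 with intervals above 0. With the pan-leukocyte score Gzmd lies at 0.94, also with its interval above 0. Gzme and Gzmf lie at 0.75 and 0.79 in that fit, with intervals that reach below 0. With the T cell score the intervals of Gzmd, Gzme and Gzmf reach below 0. None passed after adjustment over all lines.

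Mitochondrial transcripts also moved with some of these tumours. They made up 7.17% and 7.11% of summed FPKM in GSK343 replicates 3 and 5, against 2.63% to 3.82% in the other GSK343 tumours and 2.78% to 5.05% in vehicle tumours. Both tumours had the highest Prf1, Nkg7 and Cst7 levels of the 10, and their share's part in those levels was not tested. Without both, all 10 log2 fold changes were above 0, at 0.88 for Gzmc (limma adjusted p = 0.648), 0.55 for Cst7, 0.42 for Prf1 and 0.28 for Nkg7.

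Of 11 genes of the granule matrix and of granzyme precursor processing, 4 were higher in GSK343 tumours at an unadjusted limma p under 0.05, against 10.7% of all tested lines, none was lower and none passed after adjustment, with a median log2 fold change of 0.18. Srgn, the serglycin core protein that packs granzymes, averaged 186 ± 83.0 FPKM in GSK343 tumours and 91.1 ± 68.3 FPKM in vehicle tumours (SD, n = 5 each; limma adjusted p = 0.222). Ctsc, the cathepsin that removes the propeptide of granzymes, averaged 100.1 ± 20.8 FPKM in GSK343 tumours and 53.5 ± 31.9 FPKM in vehicle tumours (limma adjusted p = 0.206). Ctsw, a cathepsin of cytotoxic lymphocytes, averaged 11.7 ± 4.73 FPKM in GSK343 tumours and 6.12 ± 3.51 FPKM in vehicle tumours. Srgn and Ctsc are also expressed by myeloid cells. Of 9 macrophage markers, 8 were higher in GSK343 tumours at an unadjusted limma p under 0.05, against 10.7% of all tested lines. None of the 9 passed after adjustment, and the part of myeloid cells in the levels of Srgn and Ctsc was not tested.

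Of 8 tested genes for granule transport and release, 3 were higher at an unadjusted limma p under 0.05, against 10.7% of all tested lines. None was lower and none passed after adjustment, with a median of 0.23. Rab27a, the small GTPase that brings granules to the membrane, averaged 2.88 ± 1.57 FPKM in GSK343 tumours and 1.25 ± 0.412 FPKM in vehicle tumours (SD, n = 5 each; limma adjusted p = 0.210). Sytl2, a Rab27a effector, averaged 1.72 ± 0.841 FPKM in GSK343 tumours and 0.747 ± 0.253 FPKM in vehicle tumours. Unc13d, which primes granules for fusion, averaged 3.68 ± 1.08 FPKM in GSK343 tumours and 2.60 ± 0.985 FPKM in vehicle tumours and missed the unadjusted threshold. Vamp7 was listed at 0 in all tumours, but its line lies on a scaffold outside the assembled chromosomes. Whether read mapping has a part in that value was not tested.

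Among serpins listed as inhibitors of granule proteases, 3 of 6 were higher in GSK343 tumours at an unadjusted limma p under 0.05, against 10.7% of all tested lines. Which protease each of them blocks in these tumours was not measured. None of the 6 was lower and none passed after adjustment, with a median of 0.47. Serpina3g, a serpin of lymphocytes and myeloid cells, averaged 96.8 ± 40.0 FPKM in GSK343 tumours and 37.5 ± 23.7 FPKM in vehicle tumours (SD, n = 5 each; limma adjusted p = 0.192). Serpinb9, an inhibitor of granzyme B that protects the cells making it and can shield tumour cells, averaged 43.9 ± 9.35 FPKM in GSK343 tumours and 31.0 ± 10.2 FPKM in vehicle tumours (limma adjusted p = 0.274). Of granzyme substrates, 0 of 9 passed at an unadjusted limma p under 0.05 in either direction, against 17.6% of all tested lines, and their median log2 fold change was 0.02. The difference between the lists was not tested.

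Of 10 tested transcription factors of cytotoxic lymphocytes, 4 were higher at an unadjusted limma p under 0.05, against 10.7% of all tested lines. None passed after adjustment, with a median of 0.33. Tbx21, the gene of T-bet, which drives Gzmb and Prf1, averaged 1.79 ± 0.723 FPKM in GSK343 tumours and 0.877 ± 0.559 FPKM in vehicle tumours (SD, n = 5 each; limma adjusted p = 0.222). Runx3, a RUNX factor of cytotoxic T cells, averaged 3.79 ± 0.722 FPKM in GSK343 tumours and 2.38 ± 0.942 FPKM in vehicle tumours (limma adjusted p = 0.215). Zeb2, a factor of terminally differentiated cytotoxic T cells that macrophages also express, averaged 5.75 ± 2.03 FPKM in GSK343 tumours and 2.62 ± 0.887 FPKM in vehicle tumours (limma adjusted p = 0.191). Eomes was below the filter.

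Of 11 tested cytokines and receptors that induce granule genes, 7 were higher at an unadjusted limma p under 0.05, against 10.7% of all tested lines. None was lower and none passed after adjustment, with a median of 0.69. Il2ra, the high-affinity interleukin-2 receptor chain, was 0.919 to 3.02 FPKM in GSK343 tumours, against 0.284 to 0.887 FPKM in vehicle tumours (limma adjusted p = 0.191). Its groups did not overlap, as in 1.42% of all tested lines in that direction. Il18rap, a chain of the interleukin-18 receptor, averaged 5.60 ± 1.42 FPKM in GSK343 tumours and 3.33 ± 0.662 FPKM in vehicle tumours (SD, n = 5 each; limma adjusted p = 0.191). Il2rg, the chain shared by receptors of several interleukins, averaged 47.9 ± 18.3 FPKM in GSK343 tumours and 22.4 ± 13.7 FPKM in vehicle tumours.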

How the data were processed

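Poly-A RNA of 10 Hepa1-6 tumours was sequenced on a HiSeq instrument, per the labels. The submitters' processing notes name the mm10 genome, StringTie 1.3.3b, HISAT2 2.1.0 and Trimmomatic 0.33. Their options, the annotation and whether counting used strand are not stated in the sources used here. The authors deposited 1 value per line and tumour without a unit in the header, and the values were read as FPKM, an inference from the values and StringTie's usual output. A further 10 columns belonged to no sample, held no values and were not used.

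From these values, log2(FPKM + 1) was compared in limma 3.58.1 under R 4.3.3, with the prior variance trended on intensity. The fit covered all 10 tumours and the 14496 lines averaging 1 FPKM or more, two-sided, called at a Benjamini-Hochberg adjusted p under 0.05. No member fell below the filter. Single genes were also compared by exact permutation over all assignments of the tumours, and correlations by 100000 permutations. The limma script was tested on simulated data. P-values measure the spread between these tumours; FPKM allows no counting interval.

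All 10 members were named, up to 4 genes per list by smallest p, genes under the filter or listed at 0, and the 3 most alike lines per member. Values of 2 genes that this rule takes are not reported here. The members and lists were chosen with earlier results of these data known. Of 175 list genes 174 were found, Gsdme under its older symbol. Identifiers were looked up in GENCODE M21, which held 54165 of 54986. Alternatives covered filter, pseudocount, scaling, variance model, tumour weights, leukocyte covariates, replicate block, threshold and left-out tumours.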

Additional observations from a re-analysis of the deposited data

Results flagged for a closer look

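In 26 groups of 5 tumours, 7 values stood far from the rest of their group by Dixon's criterion. For normally distributed values, chance alone gives about 5% of groups such a value. The criterion was applied to FPKM without logs, where high values stand out more, so that 5% may not hold here. All 7 were in vehicle replicates 1 and 2. Vehicle replicate 2 stood apart with 12.4 FPKM for Gzmk, 59.4 FPKM for Nkg7, 13.8 FPKM for Cst7 and 53.7 FPKM for the sum of Gzma, Gzmb and Gzmk. Its T cell, NK cell and pan-leukocyte scores were also the highest of the vehicle tumours, and their part in these levels was not tested. Vehicle replicate 1 stood apart with 4.55 FPKM for Gzmd, 5.22 FPKM for Gzmf and 16.8 FPKM for the sum of Gzmc to Gzmf. Its pan-leukocyte score, 3.97, was the lowest of the 10 tumours. The 7 values are not independent, since the sums hold the single genes.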

How the results depend on the processing

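No granule gene was called under any of the settings compared, and 254 of 267 values of members kept their direction and their side of the threshold. Changes of filter, variance trend or threshold, and summed lines, leave a member's fold change as it is. Direction was fixed in advance in those settings, and only the adjusted p or the threshold could move. The 13 that turned were all fits with a leukocyte covariate. With the pan-leukocyte score, Nkg7 had −0.32, Gzmb −0.11, Gzma −0.31, Prf1 −0.14, Gzmk −0.34 and Cst7 −0.25. With the T cell score, Nkg7 had −0.13, Prf1 −0.0278 and Gzmk −0.13, and with the NK cell score Nkg7 had −0.11, Prf1 −0.0526, Gzmk −0.0553 and Cst7 −0.046. A filter of 5 FPKM left Gzmd, Gzme and Gzmf untested.

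The background count of 12 lines moved more. It was 7 at a minimum of 0.1 FPKM, 6 without a filter, 3 at a minimum of 5 FPKM, 7 with quantile normalization, 4 without both GSK343 tumours of high mitochondrial share and 33 at a threshold of 0.1. Each of the 3 leukocyte covariates gave 2. Leaving out 1 tumour at a time gave 3 to 96, with 96 without vehicle replicate 2 and 37 without GSK343 replicate 1. The causes were not tested, beyond the tumours or lines that each setting removes.

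With the replicate number as a block, 0 members and 2 lines were called, a fit that rests on the tumours of shared numbers. Same-numbered tumours deviated from their group means with r of −0.11, −0.33, 0.03 and −0.19, so the numbers give no pairing. Depth is unknown, and levels near 1 FPKM, as for Gzme, carry the least precision.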
